A study of Homo sapiens with 2 samples.

Results

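The members are short single-exon RNA pieces that were assembled from reads in the stretch just after annotated genes, and that the deposited files list without a strand. A piece was taken when it had at least 300 bases, lay outside the mitochondrial genome, overlapped no annotated transcript and began within 10000 bases after the nearest annotated gene 3' end. The rule found 6230 pieces in the control library, of 29208 strandless pieces in all, and 7230 of 36255 in the knockdown library. Since the pieces carry no strand, "downstream" says only where a piece lies, not that its RNA was made from the same strand as the gene.

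RNA was sequenced from A549, an established line of human lung adenocarcinoma cells (non-small cell lung cancer in the labels). Control cells carried an shRNA to LacZ, a gene of bacteria with no human target, and knockdown cells carried an shRNA to PSPC1, an RNA-binding protein of nuclear bodies called paraspeckles. Both were grown in the same serum-containing medium, and the sources used here do not state whether poly(A) RNA was selected. Each group has 1 library, so nothing below has a check by replicates. Intervals cover only counting error, or the spread among pieces or regions within 1 library. PSPC1 stood at 31.5 FPKM (fragments per kilobase, relative to all mapped fragments of a library) in control cells and 17.7 in knockdown cells, so some of its RNA was still present. The depth was about 56200000 and 57100000 fragments, a ratio of 1.02.

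RNA polymerase II does not stop at the end of the mature message. The nascent RNA is cut after a polyadenylation signal, most often AAUAAA or its variant AUUAAA, while the polymerase runs on for up to kilobases until the exonuclease XRN2 catches it and it is released with the help of factors such as PCF11. RNA from this stretch is usually short-lived. Replication-dependent histone genes end differently, at a stem-loop bound by SLBP, and small nuclear RNA genes use the Integrator complex.

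The ends of the genes that recur below are shown because the distance of every piece is counted from such a point. Each line gives the last 30 bases of the mature transcript from GENCODE 29 on GRCh38, 5' to 3' on the transcript's strand and written as DNA, with the polyadenylation signal in capitals. The pieces themselves lie in coordinates of the deposited files, whose gene positions are those of GRCh37, and their own sequence was not used here.
UTP15 (chr5:73581940-73581969, plus strand): tttaAATAAAgtttctatttaaaaaccttt
HELLS (chr10:94602070-94602099, plus strand): tttaccaAATAAAtgttccttataagatga
EDN1 (chr6:12297165-12297194, plus strand): tagaaAATAAAtatttttttccttactgta
CXCL2 (chr4:74097035-74097064, minus strand): caggaaAATAAAatatttaaaaatataaaa
VPS18 (chr15:40903946-40903975, plus strand): ggtggagagcATTAAActgtctgcactgca
STEAP2 (chr7:90237649-90237678, plus strand): tttttttctcATTAAAtaataattctagta

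The first 4 of these ends carry AATAAA, and VPS18 and STEAP2 carry ATTAAA. The letters AATAAA and ATTAAA were searched on the transcript's strand in the last 40 bases of 4822 protein-coding genes at 1 FPKM or more whose end could be matched to GENCODE. AATAAA stood in 67.8% of them, ATTAAA without it in 15.1%, and neither in 17.1%. The 1523 genes followed by a piece in either library were close to the 3299 that were not: 66.8% against 68.3% held AATAAA, and 18.1% against 16.6% held neither. The match is a description of letters in this window and says nothing of which signal was used.

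A typical piece was short and rested on few reads. The median length was 1029 bases in control cells and 1049 in knockdown cells, with the longest at 20927 and 24264 bases. The median piece held 17 fragments in both libraries, and its median FPKM was 0.387 in control cells and 0.379 in knockdown cells. Only 380 pieces (6.10%) in control cells and 391 (5.41%) in knockdown cells reached 1 FPKM, but these held 43.1% and 39.5% of all fragments in the class. At the limits of the rule, pieces less than 100 bases over the minimum length numbered 109 and 123 with a median of 12 fragments in both, and those up to 100 bases under it, which were left out, numbered 59 and 56 with medians of 14 and 16.5.

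Pieces were most frequent close to the gene. In the control library 593 began within 500 bases of the 3' end and 118 in the last 500 bases before the limit, and in the knockdown library 687 and 137. The share within 1000 bases was 19.1% and 19.3%, the share within 5000 bases was 71.2% and 70.6%, and the median distance was 3016 bases in both. The 2 libraries thus differed in number but little in where the pieces lay. In the 500 bases just past the limit 115 and 125 pieces followed, so the number does not drop at the limit itself.

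**Figure D1:**
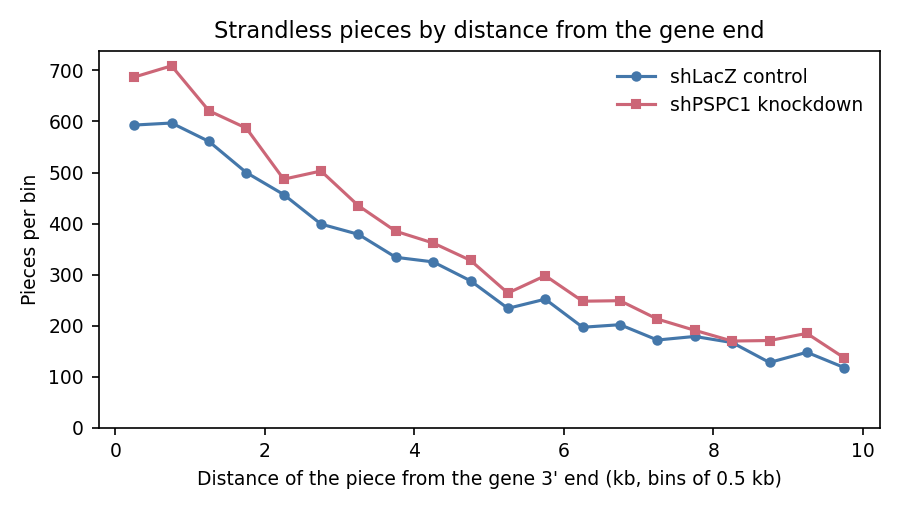
Number of strandless pieces in each 0.5 kb bin of distance from the annotated gene 3' end, for the control (circles) and knockdown (squares) library. Both lines fall from 593 and 687 pieces in the nearest bin to 118 and 137 in the farthest, and the knockdown line lies above the control line in every bin.

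The knockdown file held 16.1% more of these pieces than the control file, at nearly equal depth. Their fragments added up to 271637 in control cells and 308331 in knockdown cells, which is a ratio of 1.12 after scaling to depth. The other strandless classes were also more numerous in the knockdown file: strandless pieces that overlap an annotated gene numbered 13544 and 17975, a ratio of 1.33, and those far from gene ends 7519 and 8963, a ratio of 1.19. Their depth-scaled fragment ratios were 1.17 and 1.12. Over pieces with a whole fragment number only, a choice made after seeing the data, the ratio was 1.15 downstream of genes, 1.52 over annotated genes and 2.43 far from gene ends. As a share of all strandless pieces of 300 bases or more, the downstream pieces came to 22.8% in control cells and 21.2% in knockdown cells.

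The class is uneven. The 10 pieces with most fragments held 21.6% of the total in control cells and 19.2% in knockdown cells, and without the top 20 of each library the depth-scaled ratio was 1.16 in place of 1.12. The largest lay 8734 bases after KHDC3L on chromosome 6 (74082632-74083038) with 960 FPKM and 13268 fragments in the control, against 993 FPKM and 13578 fragments in the knockdown library. KHDC3L, an oocyte gene, was itself listed at 0 in both libraries, so this piece lies after a gene with no listed signal.

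The same holds for 2 further abundant pieces. After HOXD1, a homeobox gene, a piece of 376 bases in control cells and 371 in knockdown cells stood at 565 and 623 FPKM, while HOXD1 was at 0 and 0.02 FPKM. A later annotation places this piece in a pseudogene, as given below. After the pseudogene FAM153CP a piece stood at 436 FPKM in control cells and 513 in knockdown cells, with the pseudogene itself at 0 and 0.06. Both differences in fragments are under 1.2-fold, and the groups of 1 library give no spread to set them against. After MAN2B1, which encodes lysosomal alpha-mannosidase, the piece held 7087 fragments in control cells and 8701 in knockdown cells, and after PEX6, a peroxisome import ATPase, 6042 and 4612. The pieces after ZNF286B (4593 and 4973 fragments), PANX1 (2343 and 2534) and IGHV1-2 (2367 and 2430) were also among the 10 largest regions. None of these regions reached a 2-fold difference.

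Where an annotation of later date covers the same ground, some pieces fall in known exons. GENCODE 29 was compared by the distance from the same last splice site, which placed 5439 pieces of the control and 6371 of the knockdown library. No GENCODE exon touched 77.8% of the control and 78.8% of the knockdown pieces. Longer 3' ends of the same gene covered at least 0.5 of the piece for 523 pieces (9.62%) in control cells and 563 (8.84%) in knockdown cells, at median distances of 1956 and 2024 bases. Long non-coding RNA genes covered 104 and 116. Pseudogenes covered only 44 and 54 pieces, 0.809% and 0.848%, yet these held 19.2% and 17.8% of the placed pieces' fragments. Reads from a near-identical parent gene can be placed on a pseudogene copy, so the levels of those pieces are uncertain. The piece after HOXD1 is among them and has the highest FPKM of this class (565 and 623). The piece after KHDC3L (960 and 993 FPKM) also touched GENCODE exons, but by less than 0.5 of its length.

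The genes upstream of the pieces numbered 3515 in control cells and 3828 in knockdown cells. Of these 2590 were upstream of a piece in both, which is 73.7% of the control and 67.7% of the knockdown genes. Protein-coding genes preceded 87.1% and 87.5% of the pieces, long non-coding RNA genes 4.09% and 3.97%, and microRNA genes 1.69% and 1.62%. Up to 8 pieces followed 1 gene, and pieces after the same gene are neighbours and not independent of each other.

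A piece was more often found after genes with more RNA. Among genes listed at 0, 4.72% in control cells and 5.01% in knockdown cells were followed by a piece. The share was 22.6% and 24.7% at 1 to 10 FPKM, 28.4% and 31.9% at 10 to 100 FPKM, and 27.0% and 28.7% at 100 FPKM or more. From 1 FPKM up, the knockdown share was above the control share in each bin. The level of the downstream region was counted per covered kilobase and scaled to depth. Its median was 3.52% of the gene's FPKM over 2584 control regions (95% interval of the median 3.34% to 3.77%) and 3.47% over 2857 knockdown regions (3.27% to 3.67%). Covered kilobases are full piece lengths, here and below. FPKM divides by effective length, which is shorter by the mean fragment length, so these percentages are lower than a ratio of FPKM values would be. In the 1881 regions present in both with a gene at 1 FPKM, the medians were 3.32% and 3.39%, and the share was higher in the knockdown library for 977. The intervals of the medians reflect the spread between regions within 1 library. They do not measure a difference between the libraries, which share many of these genes.

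The files differed in which pieces they list. By an overlap of at least 1 base, 64.8% of the control pieces (95% Wilson interval 63.6% to 65.9%) and 55.8% of the knockdown pieces (54.7% to 57.0%) had a counterpart in the other file. The shared pieces held 73.5% and 71.1% of the fragments. The files listed nothing assembled over the same bases for 1857 control pieces (29.8%) and 2892 knockdown pieces (40%), and such pieces had a median of 14 fragments in both libraries. For another 251 and 230 pieces the other file had an assembled transcript with a strand in the same place. Files that list only assembled transcripts do not show that a region without one had no reads.

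**Figure D2:**
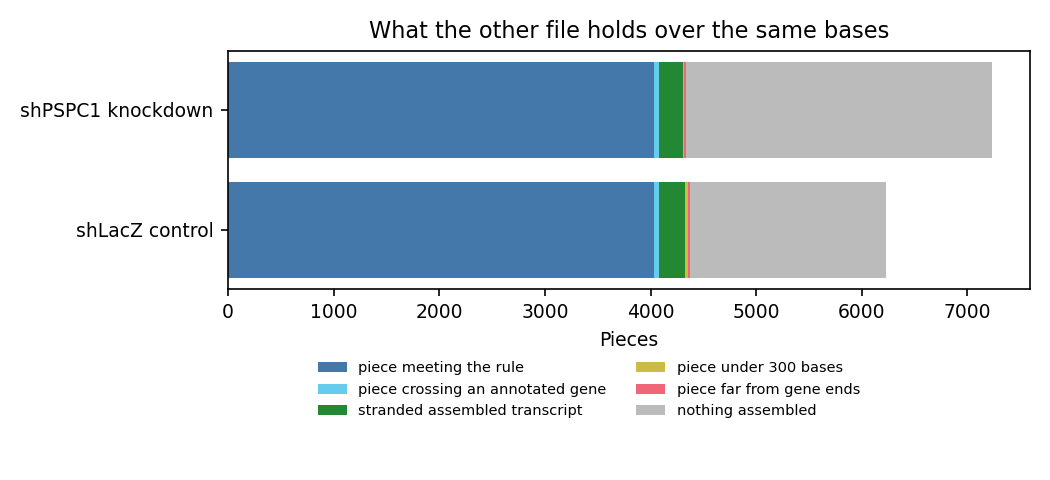
Pieces of each library (bars, in numbers) divided by what the other library's file lists over the same bases. The blue parts, 4034 and 4037 pieces with a counterpart, are nearly equal, and the grey part with nothing assembled is 1857 in control cells and 2892 in knockdown cells.

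For a comparison by gene, all pieces after 1 gene were summed into a region. A region was called higher or lower when it had at least 20 fragments in the higher library, a difference of at least 2-fold after scaling to depth, and 95% exact Poisson intervals that did not overlap. Of the 2590 regions listed in both libraries, 454 (17.5%) were higher in the knockdown library and 229 (8.84%) lower, with a median log2 ratio of 0.20. With pieces within 1000 bases of the gene only, 31 regions were higher and 37 lower, so the larger side turned. A second measure counted every assembled transcript over the same bases, stranded ones included, and called 411 (15.9%) higher and 193 (7.45%) lower. It spread each transcript's fragments evenly over its exons, so its values over given bases are estimates, here and below. By both measures 379 regions (14.6%) were higher and 173 (6.68%) lower, and 12 were called in opposite directions.

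**Figure D3:**
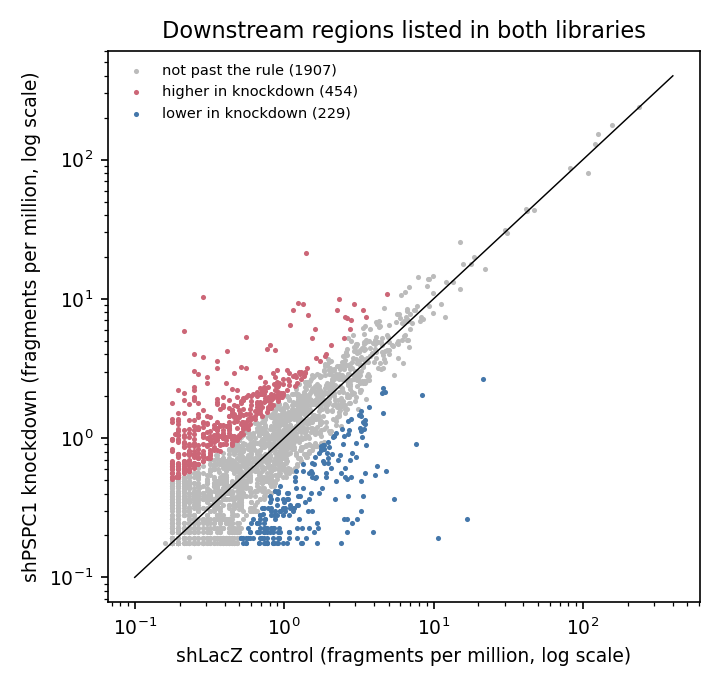
Depth-scaled fragments in each of the 2590 regions listed in both libraries, control on the horizontal and knockdown on the vertical axis, both on log scales, with the line of equality. The 454 regions called higher and the 229 called lower lie mostly at low levels, and the regions with most fragments lie near the line.

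These differences went with the length that was assembled. In 453 of the 454 higher regions the pieces covered more bases in the knockdown library, with medians of 1282.5 bases in control cells and 3719.5 in knockdown cells. Their median fold in fragments was 2.95, in covered bases 2.59 and in fragments per covered kilobase 1.18, and only 30 were also 2-fold higher per kilobase. In 225 of the 229 lower regions the control covered more, with medians of 3178 and 1129 bases, and 38 were also 2-fold lower per kilobase. The part of the assembly in these differences was not tested.

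**Figure D4:**
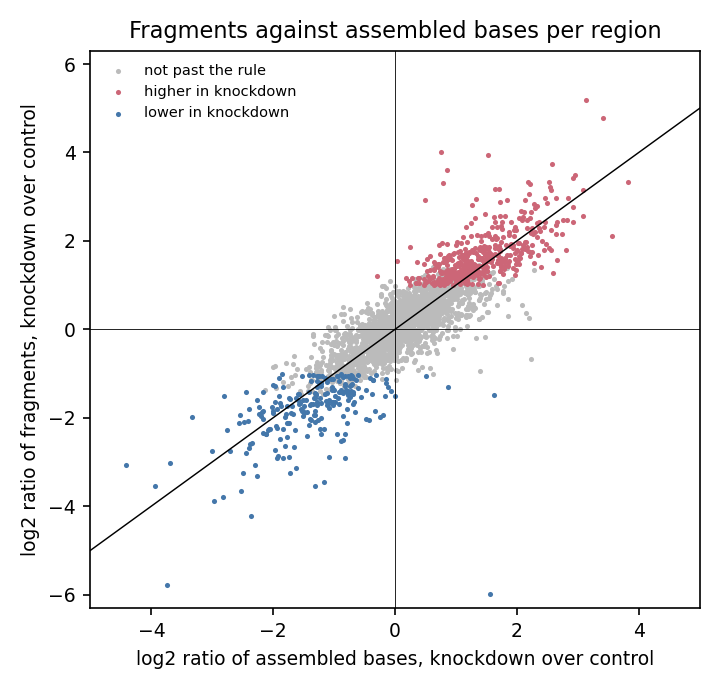
For each region listed in both libraries, the log2 ratio of fragments (vertical) against the log2 ratio of assembled bases (horizontal), knockdown over control, with the line of equal ratios. Nearly all of the 454 higher regions lie to the right of 0 and nearly all of the 229 lower regions to the left.

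Pieces were also compared in pairs of like extent, a choice that limits how far their lengths can differ and so removes much of the difference in assembled bases described above. Among 2166 pairs that overlapped by at least 0.5 of both pieces, with no other strandless piece over them, 62 (2.86%) were higher and 37 (1.71%) lower in the knockdown library. Of these, 5 and 8 passed per base of full piece length as well. The median log2 ratio was 0.08, and 0.06 per base. Of the 180 pairs with at least 100 fragments, 70.6% lay within 1.5-fold. By the same rule 4.4% of 3411 pairs over annotated genes were higher and 1.23% lower, 3.72% and 1.43% of 2664 pairs far from gene ends, and 3.76% and 1.42% of all 8266 strandless pairs. Of these 3 classes the downstream pairs had the smallest share of higher calls and the largest share of lower calls, and the difference between classes was not tested.

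The pairs that passed per base as well were weak. After CCS, the copper chaperone of superoxide dismutase, the piece held 16 fragments in control cells and 53 in knockdown cells, and after ZWINT, a kinetochore protein, 18 and 50. CCS and ZWINT themselves had log2 ratios of 0.13 and 0.02. After PARVB, a focal adhesion protein, the piece held 90 fragments in control cells and 45 in knockdown cells, a 2.03-fold fall at nearly the same length (1424 and 1452 bases), with PARVB itself at a log2 ratio of -0.04. The CCS and PARVB pairs lie within 1000 bases of an annotated transcript start, and a stricter setting of the rule leaves such pieces out. After CSF2RA, a receptor subunit for GM-CSF, the piece held 77 and 20 fragments. By FPKM, which divides by the shorter effective length, the pairs after CCS (0.324 and 0.641) and CSF2RA (0.815 and 0.412) were just under 2-fold apart. Those after ZWINT (0.259 and 0.619) and PARVB (1.27 and 0.612) were over 2-fold apart by FPKM too. Among the abundant pairs, that after ACER3, an alkaline ceramidase, held 846 and 673 fragments and that after FITM2, a lipid droplet protein, 683 and 750, both close to the gene at 267 and 883 bases.

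The region after GBP2, an interferon-induced GTPase, shows what assembled length does to FPKM. Its piece was 2204 bases long with 2633 fragments in the control, and 871 bases with 2478 fragments in the knockdown library. Its FPKM was 22.9 and 61.4, so the FPKM is higher in the knockdown library while the fragment number is not. For this reason the comparisons here use fragments.

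Of the 10 regions with the largest fold higher by members alone, 6 were no longer called when every assembled transcript was counted. After CDCA2, a mitotic phosphatase subunit, members held 79 fragments in control cells and 1227 in knockdown cells, but all assembled transcripts over those bases held 1212 and 1227. After ZNF141, a zinc finger gene, members held 12 and 336 fragments and all transcripts 342 and 336. After BMPR1A, a BMP receptor, members held 14 and 230 and all transcripts 331 and 230. In these regions the control file lists other assembled transcripts over some of the bases. The 15.3-fold, 27.6-fold and 16.2-fold differences in members were not seen by the second measure, which is an estimate. What part of them comes from how the files list the RNA was not tested. The other regions that lost the call were those after GGT8P, WDR12 and ELF2.

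The 10 regions highest by both measures lay after RTKN, UTP15, PIN4, CHMP4A, RWDD2A, BUB3, COPS3, GLRX3, TOMM20 and MRPL36, a choice made after their values were seen. After UTP15, a factor of small-subunit ribosome assembly, the control had 1 piece of 11 fragments (interval 5.49 to 19.7) that began 6817 bases past the gene. The knockdown had 3 pieces with 126 fragments (105 to 150), the nearest 1902 bases past the gene (chromosome 5, 72879696-72882347). Each library's pieces here had nothing assembled over the same bases in the other file, so the sums are of different bases, 696 in control cells and 5388 in knockdown cells. Per covered kilobase the depth-scaled fragments were 0.28 and 0.41, and UTP15 itself had a log2 ratio of 0.14 by fragments.

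In most of these regions the nearest piece was closer to the gene in the knockdown file. Only after PIN4 (1134 and 1349 bases) and RTKN (6227 and 6851 bases) was it farther. After COPS3, a subunit of the COP9 signalosome, 14 fragments in 1 piece stood against 126 in 3 pieces, and the nearest began 6558 bases past the gene in control cells and 426 in knockdown cells. After TOMM20, a receptor for mitochondrial protein import, 14 fragments from 3489 bases on stood against 112 from 404 bases on. After BUB3, a spindle checkpoint protein, 17 fragments in the control stood against 156 in the knockdown library. Per covered kilobase the depth-scaled fragments were 0.28 and 0.42 after COPS3, 0.35 and 0.50 after TOMM20 and 0.17 and 0.50 after BUB3. The COPS3, TOMM20 and BUB3 genes themselves had log2 ratios of -0.10, 0.00 and 0.05.

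After CHMP4A, which belongs to the ESCRT-III membrane-cutting complex, the library pieces did not overlap: 12 fragments lay 8923 bases past the gene in control cells and 120 lay 4091 bases past it in knockdown cells. After RTKN 14 fragments in the control stood against 172 in the knockdown library, again at different positions. A call compares sums over the pieces each file lists, and does not mean that the same bases changed. Of the 10, those after RTKN, CHMP4A, BUB3 and PIN4 were also more than 2-fold higher per covered kilobase of full piece length, at 0.50 and 3.31 depth-scaled fragments per kilobase after RTKN and 0.21 and 1.21 after CHMP4A. By FPKM, which divides by the shorter effective length, the PIN4 pieces (0.323 in control and 0.641 in knockdown cells) were just under 2-fold apart. The pieces after RTKN (0.729 and 4.05) and CHMP4A (0.251 and 1.34) stayed more than 2-fold apart.

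The regions lowest by both measures lay after FIGNL1, MYOZ1, VPS18, STEAP2, ORMDL1, DCAF13, ADK, GPATCH2, RFX8 and GHITM, also chosen after their values were seen. After FIGNL1, an ATPase of homologous recombination, the control had 2 pieces with 599 fragments (552 to 649) that began 331 bases past the gene. The knockdown library had 11 fragments (5.49 to 19.7) in 1 piece 9296 bases past the gene. The pieces covered 9442 bases in control cells and 704 in knockdown cells, and per covered kilobase the depth-scaled fragments were 1.13 and 0.27. FIGNL1 itself stood at 16.3 and 15.8 FPKM.

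The region after FEM1C, a substrate receptor of a ubiquitin ligase, was lowest by members, with 936 fragments in control cells and 15 in knockdown cells. Its control piece was 520 bases long and met a knockdown piece under 300 bases, which the length limit left out, and all transcripts gave 936 and 190.

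After VPS18, a subunit of the complexes that tether endosomes and lysosomes, 136 fragments from 110 bases past the gene on in the control stood against 10 in the knockdown library, at 0.36 and 0.18 per covered kilobase. After STEAP2, a metalloreductase, 148 fragments from 479 bases on stood against 15, at 0.56 and 0.27 per covered kilobase. After GHITM, an inner mitochondrial membrane protein, 79 fragments stood against 11. VPS18, STEAP2 and GHITM themselves had log2 ratios of 0.06, -0.01 and 0.02. Of the 10 regions with the largest fold lower by members alone, those after TMC2, HIF1AN, RBM26, TTYH1 and TIMM29 lost the call when every transcript was counted.

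**Figure D5:**
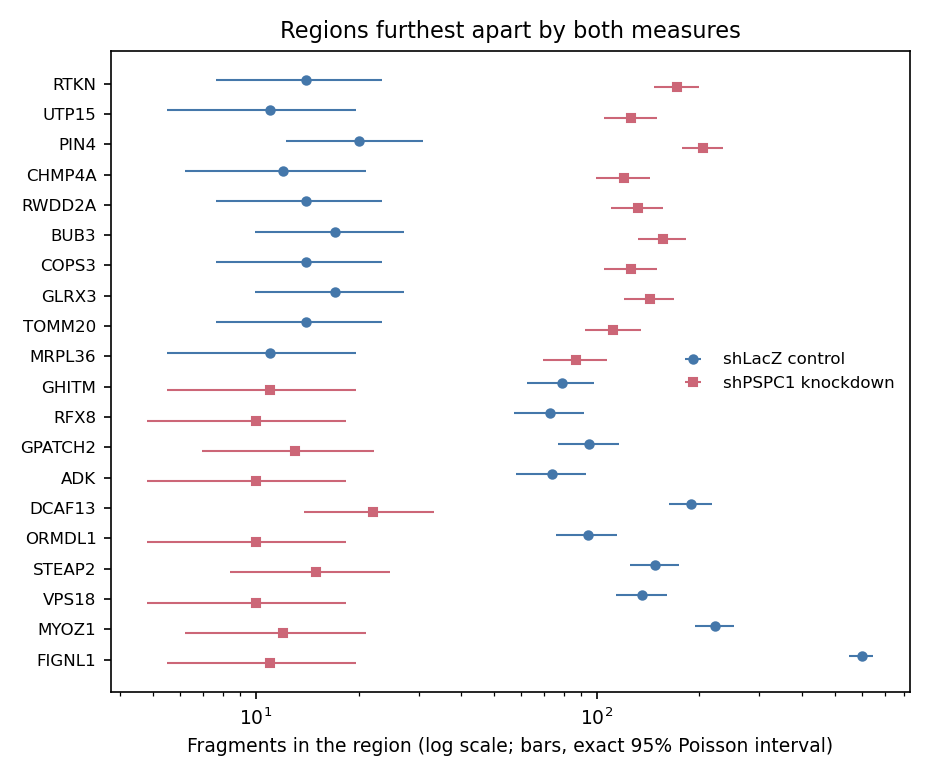
Fragments in the 10 regions highest and the 10 lowest by both measures, on a log scale, for the control (circles) and knockdown (squares) library, with exact 95% Poisson intervals as bars. The regions run from 14 against 172 fragments after RTKN at the top to 599 against 11 after FIGNL1 at the bottom. The knockdown values after RTKN and PIN4 are estimates and not whole counts. That the intervals of the 2 libraries do not overlap follows from the rule of size, which requires it after scaling to depth.

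Most upstream genes stayed within 1.5-fold while their regions were called. Of the 289 regions higher by both measures whose gene reached 1 FPKM in both libraries, 273 had a gene within 1.5-fold, 1 gene was 2-fold higher and 3 were 2-fold lower. Of the 125 lower regions, 120 had a gene within 1.5-fold, with 1 gene 2-fold lower and 1 higher. Over all 11109 genes at that level 91.7% lay within 1.5-fold, 0.864% were 2-fold higher and 1.46% 2-fold lower. Across the 123 pairs of at least 100 fragments with such a gene, the log2 ratios of piece and gene had a Spearman's rho of 0.28 and a Pearson's r of 0.23, given as a description of pieces that share their libraries.

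Some of the most abundant regions were listed in 1 library only and get no fold. In the knockdown file a piece of 10821 bases with 2558 fragments followed ALYREF, an mRNA export adaptor, while the control file had 2175 fragments over the same bases on a piece that crosses an annotated gene. After EDN1, which encodes the vasoconstrictor endothelin-1, a piece of 4567 bases began 7816 bases past the gene with 1046 fragments in the knockdown library, and the control file held 851 on a stranded transcript. By the second measure, an estimate, these regions had assembled signal in each library.

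After HELLS, a chromatin remodeller needed for DNA methylation, the knockdown piece held 2236 fragments from 5954 bases past the gene on (chromosome 10, 96367810-96374068), and a stranded control transcript 664 over the same bases. In the control file, PUS7L, a pseudouridine synthase, was followed by a piece of 9178 bases with 1952 fragments, and the knockdown file held 1852 there on a stranded transcript. The control piece with most fragments and nothing assembled in the knockdown file followed the pseudogene ESPNP, with 4173 fragments, a number that is an estimate because the interval gave no whole count. After FAM25C the control piece held 2752 fragments and the knockdown file 1764 over the same bases, after SAFB2 the values were 991 and 918, and after PPIAL4D the control piece held 1411 with nothing assembled in the knockdown file. In all, 407 control-only and 554 knockdown-only regions had at least 20 fragments, and for 146 and 141 of them the other file held assembled signal over the same bases.

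MicroRNAs are cut as small hairpins out of longer primary transcripts, and the files annotate the hairpin alone for these genes. Pieces followed 64 microRNA genes in control cells and 63 in knockdown cells, 49 in both. The pair MIR30A and MIR30C2 lie near each other on chromosome 6, and their mature 5' arms are shown, from RefSeq on GRCh38.p14, because they share the seed (bases 2 to 8, in capitals).
hsa-miR-30a-5p (chr6:71403595-71403616, minus strand): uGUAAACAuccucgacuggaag
hsa-miR-30c-5p (chr6:71377003-71377025, minus strand): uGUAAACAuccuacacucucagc

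The seed is GUAAACA in both. After MIR30A, 1 control piece held 846 fragments and 3 knockdown pieces 1462, and after MIR30C2, 2 control pieces held 440 and 3 knockdown pieces 815. Both differences stayed under 2-fold, with log2 ratios of 0.77 and 0.87. By every assembled transcript the values were 987 and 1462 after MIR30A, and 805 and 1082 after MIR30C2. Some of the knockdown pieces overlap each other here, so their fragments are shares estimated by the assembler. After MIR4492 the values were 1053 and 1137 fragments, and after MIR2114 they were 765 and 751, which is within 1.1-fold for both. After MIR30B, on chromosome 8, they were 528 and 507. After MIR4740 the members held 190 and 75 fragments and were called lower, but all transcripts held 196 and 291, so the direction depends on the measure.

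Over all annotated genes, 13.1% were followed by a piece in control cells and 14.3% in knockdown cells, and the lists below are to be read against these shares. Of 69 replication-dependent histone genes 14 (20.3%) were followed by a piece in control cells and 13 (18.8%) in knockdown cells, 7 of them in both, with 1 region higher and none lower, against 17.5% and 8.84% over all regions. After H2AC6 the pieces held 120 fragments in control cells and 129 in knockdown cells, and after H4C3 45 and 66. After H1-3, a linker histone, the knockdown file alone listed 3 pieces with 111 fragments, the nearest 66 bases past the gene (chromosome 6, 26232698-26234374), and the control file had nothing assembled there. H1-3 itself stood at 543 and 473 FPKM. The 1 region past the rule followed H2BC11, with 22 and 71 fragments.

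Of 56 small nuclear RNA genes 2 (3.57%) in control cells and 3 (5.36%) in knockdown cells were followed by a piece, against 13.1% and 14.3% over all genes. After RNU4-2, the U4 RNA of the spliceosome, the piece lay 9030 bases away and held 999 fragments in control cells and 1015 in knockdown cells. After RNU5E-1 the values were 36 and 24 fragments, and after RNU5A-1 the knockdown file alone listed a piece of 15 fragments. Pieces over annotated spans were left out, so a gene inside another gene can rarely be followed by a member. How many genes of the next list lie so was not counted. Of 408 small nucleolar and Cajal body RNA genes 10 (2.45%) and 12 (2.94%) were followed by a piece, and 2 of the 5 regions in both were called higher, against 17.5% over all regions. These were SNORD114-6, with 29.6 and 67.8 fragments, and SNORD93, with 14 and 108. After SCARNA17, which was not called, 77 and 66 fragments were listed, and after SNORD113-3 the control file alone listed members, with 155 fragments, against 194 on other transcripts in the knockdown file. SNORD93 turned to 352 and 163 when every assembled transcript was counted, so its direction depends on the measure.

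Of 5 paraspeckle genes (PSPC1, NONO, SFPQ, NEAT1 and MALAT1) only NEAT1 had members, and only in the control file. NEAT1, the RNA scaffold of paraspeckles, has a short form and a long form that runs on past the end of the short one. The 2 control pieces began 3136 and 6190 bases past the annotated end (chromosome 11, 65197139-65200015 and 65200193-65204566), with 78 and 112 fragments. Over the same bases the knockdown file listed a stranded assembled transcript, and the estimate over those bases was 190 fragments in control cells and 593 in knockdown cells. NEAT1's own transcripts, stranded assembled ones that lie in its exons included, held 796 and 393 fragments. The control total includes assembled transcripts (3.12 FPKM, against 2.23 for annotated ones alone). The knockdown total includes none (1.93 FPKM by either count), so the 2 totals are of unlike sets. The absence of knockdown members after NEAT1 thus does not mean that nothing was assembled there.

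Of 41 chemokine and cytokine genes 5 (12.2%) in control cells and 3 (7.32%) in knockdown cells were followed by a piece, against 13.1% and 14.3% over all genes. Neither of the 2 regions in both was called, where 17.5% of all regions were called higher and 8.84% lower. After CXCL2, a neutrophil chemokine, the control file listed a piece of 1621 bases that began 87 bases past the gene (chromosome 4, 74961045-74962665), with 1.15 FPKM and 94 fragments (interval 76.0 to 115). The knockdown file had nothing assembled there, and CXCL2 itself stood at 27.6 FPKM in control cells and 19.7 in knockdown cells. After CCL19, a lymphoid chemokine listed at 0, the knockdown file listed a piece of 131 fragments, and the control file had 99.5 on a stranded transcript over those bases. After LIF, a cytokine of the interleukin-6 family, the pieces held 64 and 56 fragments. CXCL3 and CXCL8 were followed by control pieces of 10 and 16 fragments.

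The levels of the genes for 3' end processing and termination were near the general pattern. All 42 on the list lay within 1.5-fold by estimated fragments, where 91.7% of all 11109 genes at 1 FPKM did, with a median log2 ratio of 0.03 and extremes of -0.44 and 0.45. PCF11 stood at 9.67 FPKM in control cells and 11.0 in knockdown cells, XRN2 at 74.1 and 78.1, the cleavage endonuclease CPSF3 at 49.1 and 48.8, and SLBP at 53.8 and 47.9. The genes of this list were themselves followed by pieces in 10 cases (23.8%) in control cells and 13 (31.0%) in knockdown cells, against 13.1% and 14.3% over all genes and 22.6% to 31.9% in the bins from 1 FPKM up. After CPSF2 the pieces held 173 and 271 fragments, and after LSM11, a histone 3' end factor, 131 and 165. After CPSF6 members held 150 and 139 fragments, but all transcripts held 407 and 164, which is called lower by that measure. Of the 8 regions in both, 1 was called by members, against 17.5% higher and 8.84% lower over all regions. It followed INTS7, an Integrator subunit, with 27 fragments in control cells and 68 in knockdown cells.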

How the data were processed

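Per the submitters' processing notes, reads were handled with CASAVA 1.8.2, TopHat2 2.0.7 and Cufflinks 2.1.1; the sources used here name no genome build, and scaffold names and gene positions are those of GRCh37. The authors deposited 1 transcript file per library, which gives FPKM with a 95% interval, coverage and an assembler score per transcript, per the file headers of each attribute; the score and the coverage were not used. Fragments per piece were recovered from the interval where they came out whole within 0.02 (94.6% of control and 93.7% of knockdown pieces) and otherwise from FPKM, effective length and depth. The other pieces are thus estimates, and held 31.5% of the control and 29.4% of the knockdown fragments. Those after KHDC3L, HOXD1, FAM153CP, MAN2B1 and PEX6 are among them in both libraries. Depth was estimated from pieces of 5 to 200 fragments.

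Members, lists and rules were chosen with earlier results of these data known. The text names the 10 upstream genes with most fragments, the 10 regions highest and lowest by fold past the rule of size, the 5 largest regions of each single library, and the 3 largest of each list; other names were chosen after their values were seen, entries without a symbol are not named, and 1 region of the rule is not reported here. With 1 library per group no test between groups was run. Gene levels are summed FPKM of annotated transcripts; gene ratios use estimated fragments and include stranded assembled transcripts that share an intron with the gene or lie in its exons. Transcript ends came from GENCODE 29, matched by last exon length, and microRNAs from RefSeq. Fits used Python 3.11.15, numpy 2.4.6, pandas 2.3.3 and scipy 1.17.1, and the rule of size was tested on simulated data. Alternatives covered piece length, distance, fragments, neighbouring genes, scaling, fold and overlap.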

Additional observations from a re-analysis of the deposited data

How the results depend on the processing

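No paired analysis was possible because each group has 1 library, and for the same reason no library could be left out. Of 65 alternative values 46 stayed close to the reported one, 19 moved and 0 changed direction. Counts of higher and lower regions were scored apart, so a turn of the split between them is not among the changes of direction. The ratio of total fragments, 1.12 as reported, was 1.15 with pieces of at least 500 bases, 1.11 within 1000 bases of the gene, 1.13 without neighbouring transcripts or starts, 1.16 after genes at 1 FPKM or more and 1.14 as a share of annotated fragments. Chosen after seeing the data, it was 1.15 over pieces with whole fragment numbers and 1.16 without the 20 largest pieces. Within 1000 bases of the gene 31 regions were higher and 37 lower, in place of 454 and 229, so that the larger side of the split turned; over pairs of pieces, chosen after seeing the data, they were 62 and 37. The share of pieces found in the other file was 37.3% (control) and 32.3% (knockdown) by an overlap of 0.5 of both, and 70.2% and 60% with any assembled transcript. The median signal relative to the gene was 3.91% and 3.80% with the most abundant annotated transcript, and 2.79% and 2.75% with stranded assembled transcripts, the latter chosen after seeing the data. A median piece of 17 fragments limits what can be said of single pieces.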
